A study of Mus musculus with 8 samples.

Results

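Genes of the pluripotent state, 10 of the 26212 genes of the mouse annotation used, were followed through H3K4me3 ChIP-Seq of mouse embryonic stem cells (mESCs) and of PILECs, the islet-like endocrine cells made from them in culture. The members were chosen by name as core and naive pluripotency genes: Pou5f1, Nanog, Sox2, Klf4, Klf2, Esrrb, Zfp42, Tfcp2l1, Tbx3 and Dppa3. All 10 were among the 16860 genes that had a mean of at least 1 RPM (tags scaled to the total of the library) within 1 kb of the start over the 4 H3K4me3 libraries, called kept genes below. Each library came from 1 of 4 conditions: wild-type (wt) TC-1 mESCs, menin-null 3.2N mESCs, in which Men1 is knocked out, and the PILECs made from each line. Both lines are of the genetic background 129S6/SvEvTac, and each genotype was 1 line. The mESCs were grown with LIF on irradiated feeder cells and were then freed of feeders on gelatin. Every condition had 1 H3K4me3 library and 1 input library of sonicated chromatin without antibody, 8 in all, so no spread between replicates exists and no difference between conditions was tested. Intervals given below are 95% intervals of the tag counts and cover counting error only.

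H3K4me3 is the trimethylated form of lysine 4 of histone H3, a mark of active and poised gene starts that MLL family complexes place, some of which contain menin. Pou5f1 (Oct4), Sox2 and Nanog bind together at many enhancers and promoters of mESCs, their own included, and hold the pluripotent state. Klf2, Klf4, Esrrb, Tfcp2l1 and Tbx3 belong to the naive circuit that answers to LIF and related signals, while Zfp42 (Rex1) and Dppa3 (Stella) are widely used reporters of naive cells.

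The H3K4me3 libraries held 2432377 tags in wt and 3517028 in menin-null mESCs, and 18773635 in wt and 17682677 in menin-null PILECs, so that counts in mESCs carry the wider error. Of these tags 43.5%, 51.4%, 42.7% and 40.1%, in the same order, lay within 1 kb of an annotated start, against 4.65% to 7.50% in the inputs. The median log2 ratio over all kept genes was 0.21 for menin-null over wt mESCs and -0.09 for menin-null over wt PILECs, shifts against which the members' ratios below stand. Over exons 3 to 8 of Men1, the targeted gene, from 6336725 to 6338961 of chromosome 19, the inputs of wt mESCs and wt PILECs held 17 and 22 tags and both menin-null inputs held 0, where a count of 0 allows up to 3 tags.

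The promoters of the members differ widely in their CG content. Shown first are the promoters of 3 genes whose mark was far lower in PILECs, and then those of 2 genes that kept a marked start there. Each run is 300 bases of the mm9 genome, from 250 bases before to the 50 bases that begin at the annotated start, 5′ to 3′ along the gene, with every CG in capitals. They are Pou5f1 at chr17:35642732-35643031 (plus strand), Nanog at chr6:122657361-122657660 (plus strand), Zfp42 at chr8:44392314-44392613 (minus strand), Sox2 at chr3:34548677-34548976 (plus strand) and Klf2 at chr8:74842682-74842981 (plus strand). RefSeq promoter entries (table of build GRCm38.p6) matched all of these 5 starts within 29 bases, and the Sox2 run is that of a start 131 bp upstream of the one used for its values. Tbx3 and Dppa3 had no entry and are named only.
Pou5f1, 5′ start: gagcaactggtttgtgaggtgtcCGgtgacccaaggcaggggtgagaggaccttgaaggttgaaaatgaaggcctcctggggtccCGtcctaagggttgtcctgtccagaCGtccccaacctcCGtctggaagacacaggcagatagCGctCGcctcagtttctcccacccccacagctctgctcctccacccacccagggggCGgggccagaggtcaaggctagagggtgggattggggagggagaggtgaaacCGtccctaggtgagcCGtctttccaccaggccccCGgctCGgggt
Nanog: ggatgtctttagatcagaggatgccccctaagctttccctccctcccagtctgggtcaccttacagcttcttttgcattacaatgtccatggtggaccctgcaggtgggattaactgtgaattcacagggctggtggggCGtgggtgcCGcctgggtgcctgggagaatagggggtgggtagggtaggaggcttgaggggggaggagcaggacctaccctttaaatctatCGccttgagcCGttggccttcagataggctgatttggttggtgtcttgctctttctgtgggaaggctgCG
Zfp42: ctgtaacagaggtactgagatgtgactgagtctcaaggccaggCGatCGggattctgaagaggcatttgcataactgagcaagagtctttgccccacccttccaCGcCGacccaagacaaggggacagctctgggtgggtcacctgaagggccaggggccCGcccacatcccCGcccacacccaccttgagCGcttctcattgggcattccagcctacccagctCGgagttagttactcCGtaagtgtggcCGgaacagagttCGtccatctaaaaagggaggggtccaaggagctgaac
Sox2, 5′ start: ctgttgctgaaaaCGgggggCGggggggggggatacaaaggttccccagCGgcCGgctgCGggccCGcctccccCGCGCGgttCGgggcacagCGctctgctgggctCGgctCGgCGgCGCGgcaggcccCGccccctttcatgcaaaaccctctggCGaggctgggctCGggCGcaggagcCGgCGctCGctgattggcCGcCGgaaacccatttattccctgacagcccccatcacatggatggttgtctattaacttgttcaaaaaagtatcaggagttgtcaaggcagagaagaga
Klf2: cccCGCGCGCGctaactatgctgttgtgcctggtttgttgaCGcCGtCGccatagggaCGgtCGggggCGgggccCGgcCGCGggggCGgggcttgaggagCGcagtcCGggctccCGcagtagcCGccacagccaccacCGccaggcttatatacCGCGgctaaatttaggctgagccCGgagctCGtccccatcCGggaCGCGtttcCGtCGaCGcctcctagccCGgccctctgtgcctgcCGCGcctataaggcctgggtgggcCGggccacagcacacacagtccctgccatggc
Nanog held 5 CG in its 300 bases, Pou5f1 11 and Zfp42 11, against 25 in Sox2 and 33 in Klf2. For Pou5f1 and Sox2 these are counts at the 5′ start. At the starts whose levels are reported Pou5f1 held 9, Sox2 9 and Klf4 10, so that in these 300 bases the members that kept a marked start did not all hold more CG than the others. The median over the promoters of all 16860 kept genes was 22.

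Pou5f1, Nanog, Zfp42 and Esrrb had marked starts in both mESC lines, at 23.4 RPM or more within 1 kb of the start, and at most 3.25 RPM in either PILEC line. The smallest decrease of these 4 was 11.8-fold, at Nanog, from wt mESCs to wt PILECs and 15.3-fold, at Zfp42, from menin-null mESCs to menin-null PILECs, and Pou5f1 was 16.5-fold and 28.4-fold lower. All fold changes and log2 ratios here were computed after 0.5 RPM was added to both levels, which understates the change of low genes, while the intervals rest on the tag counts alone. In such bulk libraries fewer cells with the mark and less mark per cell cannot be told apart.

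Pou5f1, the gene of the POU factor Oct4 (chromosome 17, 35642982 to 35647721, plus strand), had an H3K4me3 level of 61.3 RPM in wt and 77.9 in menin-null mESCs, and 3.25 in wt and 2.26 in menin-null PILECs. The input at the same place held 2.12, 0.801, 0.789 and 1.21 RPM in the same order. Both mESC libraries were thus far above both PILEC libraries, whatever the genotype. The log2 ratio of PILECs over mESCs was -4.04 (interval -4.69 to -3.80) in wt and -4.83 (-5.62 to -4.62) in menin-null cells. Some mark above input remained: the ratio to input in PILECs was 4.12 in wt (interval 2.31 to 7.80) and 1.86 in menin-null cells (1.08 to 3.29). These values belong to the annotated start at 35644427, which had the highest mean level and lies 1445 bp inside the gene. At the 5′ start, whose promoter is shown above, the level was 55.9, 78.5, 3.68 and 2.43 RPM.

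Nanog, a homeobox gene (chromosome 6, 122657507 to 122664651, plus strand), had 39.9 RPM in wt and 35.5 in menin-null mESCs, and 2.93 in wt and 1.53 in menin-null PILECs around the start at 122657611. Its input held 2.35, 1.60, 1.79 and 1.27 RPM. The log2 ratio of PILECs over mESCs was -3.56 (-4.27 to -3.27) in wt and -4.15 (-5.20 to -3.93) in menin-null cells. In menin-null PILECs the level could not be told from input at this depth, with a ratio of 1.20 (0.66 to 2.20), and in wt PILECs the ratio was 1.64 (1.05 to 2.59). Most of the mark in mESCs lay inside the gene: 83.5% of the tags within 1 kb in wt mESCs and 85.6% in menin-null mESCs were downstream of the start.

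Zfp42 encodes the zinc finger protein Rex1 (chromosome 8, 44380422 to 44392363, minus strand). Its level was 23.4 RPM in wt and 27.9 in menin-null mESCs, and 1.33 in wt and 1.36 in menin-null PILECs. Both mESC levels were below the medians of all kept genes, 25.9 RPM in wt and 29.9 in menin-null mESCs. With inputs of 0.706, 1.34, 1.05 and 0.662 RPM, neither PILEC library could be told from input, the ratios being 1.27 (0.68 to 2.40) and 2.05 (0.99 to 4.50). The log2 ratio of PILECs over mESCs was -3.71 (-4.88 to -3.44) in wt and -3.93 (-5.07 to -3.70) in menin-null cells.

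Esrrb encodes an orphan nuclear receptor (chromosome 12, 87702067 to 87862578, plus strand), and its starts did not behave alike. The start at 87811067, 109000 bp inside the gene, held 46.9 RPM in wt and 57.2 in menin-null mESCs, and 2.13 in wt and 2.71 in menin-null PILECs. Both PILEC libraries were far below both mESC libraries, with log2 ratios of -4.17 (-5.02 to -3.93) in wt and -4.16 (-4.88 to -3.94) in menin-null cells. Some mark above input remained, the ratio to input in PILECs being 1.93 (1.11 to 3.44) in wt and 3.28 (1.81 to 6.30) in menin-null cells. The start at 87762594, 48473 bp further upstream, held 14.0, 14.2, 8.90 and 11.2 RPM in the same order. Its log2 ratios were -0.62 (-1.19 to -0.07) in wt and -0.33 (-0.80 to 0.13) in menin-null cells, so that in PILECs this weaker start held more H3K4me3 than the one that led in mESCs. The 5′-most start of the gene, at 87702067, held 0.411, 0, 1.01 and 0.679 RPM (a count of 0 allows up to 3 tags), at or below its input level of 0.534 to 1.41 RPM apart from wt PILECs, where the input was 0.841 RPM. A weaker start at 87845359, 34292 bp downstream of the one at 87811067, held 7.40, 4.55, 0.746 and 0.848 RPM, with inputs of 1.41, 2.40, 0.947 and 0.717 RPM. It was also lower in PILECs, with log2 ratios of -2.66 (-4.43 to -2.22) in wt and -1.90 (-3.54 to -1.31) in menin-null cells. The promoter of the start that led in mESCs, at chr12:87810817-87811116 on the plus strand of mm9, is shown with CG in capitals. It matched no RefSeq entry.
Esrrb, start marked in mESCs: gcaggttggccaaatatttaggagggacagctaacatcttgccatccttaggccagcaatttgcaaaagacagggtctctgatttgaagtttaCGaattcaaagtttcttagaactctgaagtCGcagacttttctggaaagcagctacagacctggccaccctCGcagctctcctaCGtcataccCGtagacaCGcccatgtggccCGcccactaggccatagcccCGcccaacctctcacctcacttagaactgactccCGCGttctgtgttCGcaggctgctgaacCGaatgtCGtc
It held 13 CG, below the median of 22 over the promoters of all kept genes.

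**Figure D1:**
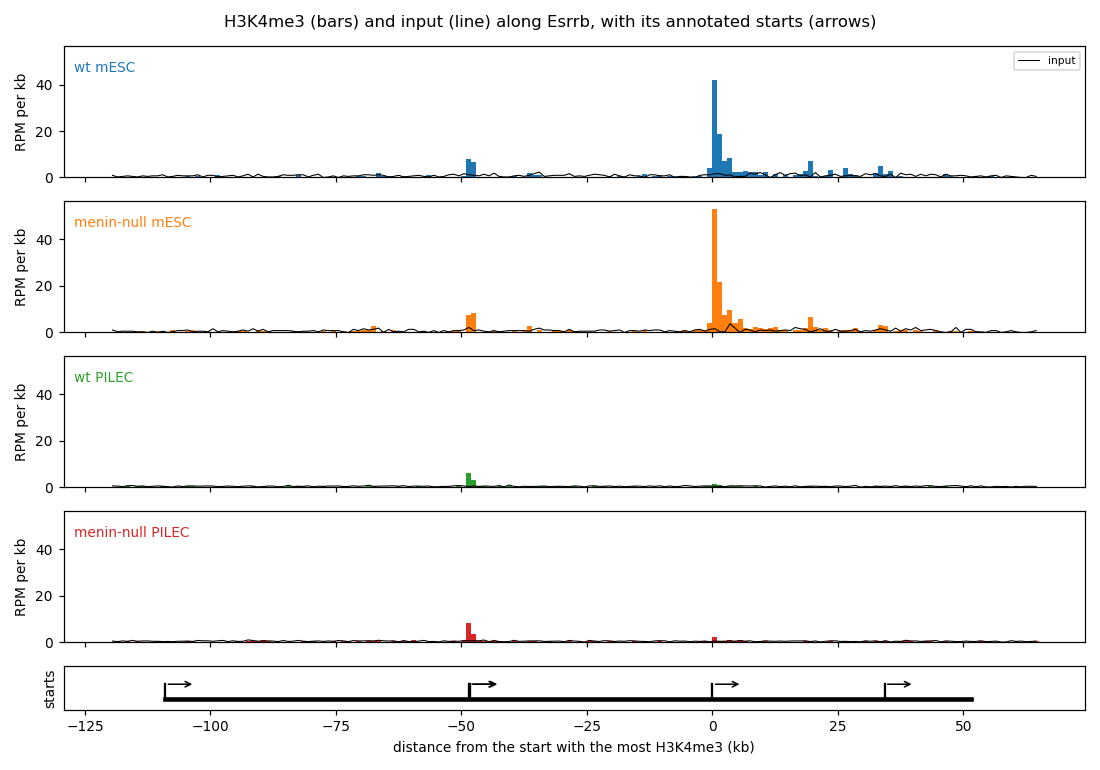
H3K4me3 along Esrrb in RPM per 1 kb (vertical axis) against the distance from the start at 87811067 (horizontal axis) in the 4 conditions, as bars with the input as a line, and with the annotated starts as arrows. The signal at distance 0 stands out in both mESC libraries, whereas the peak about 48 kb upstream appears in all 4.

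Sox2, Klf4 and Klf2 kept a marked start in PILECs at a lower level in RPM, and Tfcp2l1 did so at a weaker start. Tbx3 kept tags above input within 1 kb of its start, most of them outside the first 500 bp after it. Sox2, an HMG-box factor that is also used by neural progenitors (chromosome 3, 34548927 to 34551383, plus strand), had 58.4 RPM in wt and 82.2 in menin-null mESCs, and 26.8 in wt and 30.0 in menin-null PILECs. Its log2 ratio of PILECs over mESCs was -1.11 (-1.40 to -0.84) in wt and -1.44 (-1.66 to -1.24) in menin-null cells. At 34.0 and 38.9 times the input in wt and menin-null PILECs the Sox2 start remained plainly marked, and the mESC ratios to input of 13.1 and 25.6 rested on higher input levels of 4.47 and 3.20 RPM, against 0.789 and 0.773 RPM in PILECs.

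Klf4, a zinc finger factor of the naive circuit that many epithelia also use (chromosome 4, 55540013 to 55545347, minus strand), had 43.2 RPM in wt and 87.3 in menin-null mESCs, and 25.2 in wt and 25.5 in menin-null PILECs around the start at 55544642. Both mESC libraries were above both PILEC libraries, and the menin-null mESC library was the highest. The log2 ratio of PILECs over mESCs was -0.77 (-1.08 to -0.46) in wt and -1.76 (-1.99 to -1.56) in menin-null cells, so that 2-fold was passed in menin-null cells only. At the 5′ start, 705 bp upstream, the levels were 43.2, 73.1, 29.1 and 26.4 RPM.

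Klf2, a related factor (chromosome 8, 74842932 to 74845555, plus strand), had the highest level of the members in both mESC lines, 71.9 RPM in wt and 113 in menin-null cells, against 18.4 RPM in wt and 17.6 in menin-null PILECs. Both log2 ratios were below -1, at -1.94 (-2.23 to -1.69) in wt and -2.66 (-2.91 to -2.47) in menin-null cells. The ratio to input was 19.1 in wt and 22.4 in menin-null mESCs, and 21.9 in wt and 18.7 in menin-null PILECs. The input held 3.77, 5.07, 0.841 and 0.938 RPM in the same order. The decrease in RPM lay inside the gene. From 500 bp to 2 kb downstream of the start the level was 81.0 RPM in wt and 135 in menin-null mESCs, and 5.91 in wt and 5.43 in menin-null PILECs. In the 1 kb before the start it was 4.11, 4.83, 5.91 and 5.09 RPM, and no library stood apart there. In the downstream stretch the log2 ratio of PILECs over mESCs was -3.67 (-4.12 to -3.43) in wt and -4.52 (-4.97 to -4.32) in menin-null cells. In the upstream one it was 0.48 (-0.41 to 1.62) and 0.07 (-0.68 to 0.92), both including 0. These stretches were chosen after the profiles had been seen.

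Tfcp2l1, a grainyhead-like factor (chromosome 1, 120524522 to 120581744, plus strand), had 27.1 RPM in wt and 33.6 in menin-null mESCs, and 9.96 in wt and 7.63 in menin-null PILECs. The log2 ratio of PILECs over mESCs was -1.40 (-1.86 to -1.02) in wt and -2.07 (-2.50 to -1.77) in menin-null cells. The levels were 7.68 and 12.6 times the input in wt and menin-null mESCs, and 9.97 and 6.02 times in wt and menin-null PILECs. The input held 3.53, 2.67, 0.999 and 1.27 RPM in the same order, so that in wt cells the ratio to input was not lower in PILECs. Tbx3, a T-box repressor (chromosome 5, 120120678 to 120134733, plus strand), had 21.8 RPM in wt and 23.3 in menin-null mESCs, and 7.62 in wt and 11.6 in menin-null PILECs. Its log2 ratio was -1.46 (-1.98 to -1.03) in wt and -0.97 (-1.38 to -0.61) in menin-null cells, which stops just short of 2-fold in the latter. The ratio to input was 30.9 in wt mESCs, from 3 input tags, and 10.9 in menin-null mESCs. In wt and menin-null PILECs it was 9.66 and 10.6. The first 500 bp after the Tbx3 start held 2.47, 2.84, 1.33 and 2.88 RPM over the 4 conditions. A start of Tbx3 that lies 9387 bp downstream in the gene held 10.3, 16.5, 0.746 and 1.13 RPM, and there the log2 ratios were -3.11 (-4.84 to -2.79) and -3.38 (-4.68 to -3.11). The input at that start was also higher in mESCs, at 2.59, 3.47, 0.526 and 1.43 RPM in the same order. The start of Gm2301 on the minus strand lies 503 bp from the Tbx3 start at 120120871, so their tags cannot be told apart.

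Dppa3, expressed in naive cells and germ cells (chromosome 6, 122576428 to 122580290, plus strand), was the exception among the members. It held 1.23 RPM in wt and 2.27 in menin-null mESCs, and 0.852 in wt and 1.41 in menin-null PILECs, from 3, 8, 16 and 25 tags. Every one of these levels had an interval of its ratio to input that included 1, so H3K4me3 at Dppa3 was not detectable over input at this depth in any condition. Both stage ratios included 0.

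**Figure D2:**
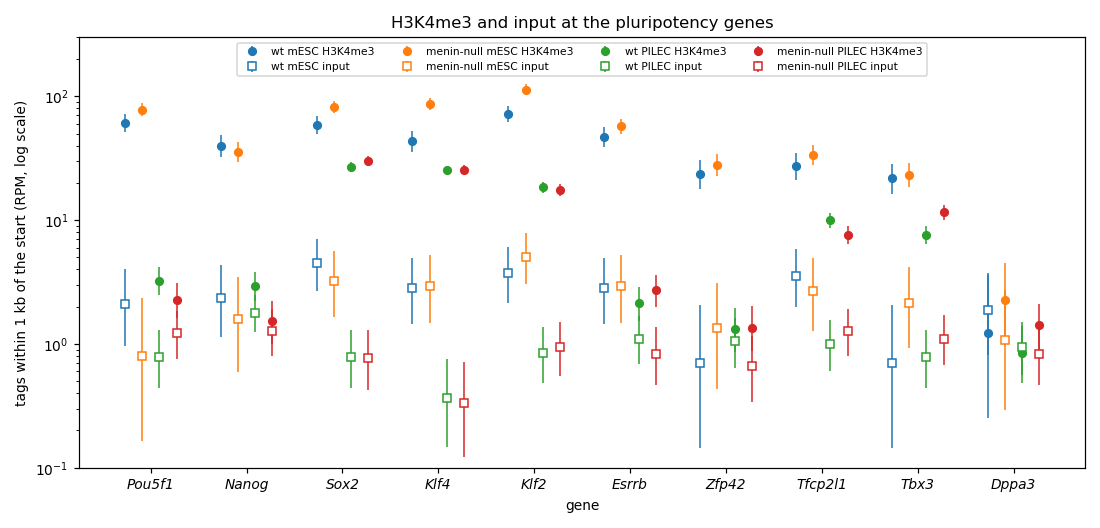
H3K4me3 and input level within 1 kb of the start of each member, in RPM on a log axis, with 1 point per library and error bars of the 95% Poisson interval of its tag count. The mESC points of Pou5f1, Nanog, Esrrb and Zfp42 stand far above their PILEC points, which lie at 3.25 RPM or below, while Dppa3 lies among the inputs in every condition.

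Counted at 2-fold, 8 of the 10 members were lower in wt PILECs than in wt mESCs, where 16.3% of all kept genes were, and 8 of 10 were lower in menin-null PILECs than in menin-null mESCs, where 22.9% were. Lower in both genotypes were 7 of 10 members, against 13.3% of kept genes. No member was higher by 2-fold at either stage step, against 6.94% of kept genes in wt cells, 5.24% in menin-null cells and 3.8% in both. The median log2 ratio of the members was -1.70 in wt and -2.36 in menin-null cells, and that of all kept genes was -0.06 and -0.35. Input at the starts was higher in mESCs, with a median over kept genes of 2.35 RPM in wt and 2.14 in menin-null mESCs, and 0.999 in wt and 1.05 in menin-null PILECs. Divided by the input within 500 kb, the members' medians were -1.10 and -1.72 and those of all kept genes 0.21 and -0.08. At 8-fold, a limit set after the values had been seen, 4 of 10 members (Pou5f1, Nanog, Esrrb and Zfp42) were lower in both genotypes, as were 138 of 16860 kept genes or 0.819%. The start with the highest mean level favours starts marked in mESCs. At the 5′ start of each gene 7 of 10 members were lower in each genotype, where 15.7% and 22.1% of kept genes were, and the medians were -1.33 and -1.80. Esrrb, whose 5′-most start held few tags, was then at 0.73 and 1.24. The stage comparisons of the 2 genotypes share no library.

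**Figure D3:**
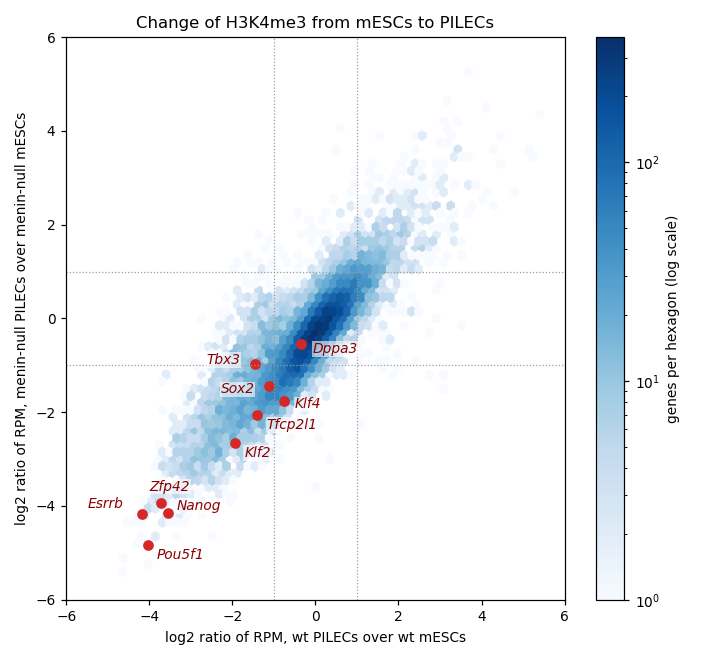
Stage change of H3K4me3 as log2 ratios of the level near the start, wt PILECs over wt mESCs (horizontal axis) against menin-null PILECs over menin-null mESCs (vertical axis), for the 16860 kept genes as shaded hexagons and the 10 members as labelled points, with dotted lines at 2-fold. Pou5f1, Nanog, Esrrb and Zfp42 lie at the lower left end of the cloud and Dppa3 lies within 2-fold on both axes.

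Among 20 other pluripotency genes, 18 were 2-fold lower in PILECs in wt cells, where 16.3% of kept genes were. In menin-null cells 20 were, against 22.9% of kept genes. Their medians were -2.94 and -3.50, beside -0.06 and -0.35 over all kept genes. Genes of this list with the largest decrease over both genotypes were Tdgf1 (Cripto, a Nodal co-receptor), Tdh (threonine dehydrogenase), Fgf4 (a secreted growth factor), Gdf3 (a ligand of the TGF-beta family), L1td1 and Dppa4. Fgf4 held 62.1 RPM in wt and 79.6 in menin-null mESCs, and 2.93 in wt and 2.88 in menin-null PILECs. Tdgf1 held 41.5, 34.7, 1.49 and 1.13 RPM in the same order. Both genes thus had marked starts in mESCs and levels of a few RPM or less in PILECs.

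The LIF pathway carries a signal in which mESCs are grown. Of its 5 genes, 4 of them kept genes, 0 were 2-fold lower in wt cells, where 16.3% of kept genes were. In menin-null cells 1 was, where 22.9% of kept genes were. It was the LIF receptor Lifr at 73.4 RPM in menin-null mESCs and 31.0 in menin-null PILECs. Stat3, the transcription factor downstream of LIF, held 46.5, 53.2, 55.5 and 54.9 RPM. Of 5 formative genes, those of the state that follows the naive one, Pou3f1 and Dnmt3b were 2-fold lower and Otx2 was 2-fold higher in both genotypes. Over all kept genes 13.3% were lower and 3.8% higher in both. None of 8 housekeeping genes passed 2-fold at either stage step, and their median log2 ratios were 0.03 in wt and -0.25 in menin-null cells.

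Markers of other cell types moved in part with the stage. The islet list of 12 genes summed to 83.0 RPM in wt and 105 in menin-null mESCs, and 64.6 in wt and 68.4 in menin-null PILECs, and Ins1, Ins2, Gcg and Iapp held at most 1.24 RPM in any condition, the highest being Ins2 in menin-null PILECs, where its input held 0.717 RPM. Pdx1, Isl1 and Mafa of that list were 2-fold lower in PILECs in both genotypes, and 0 were higher in both. Of 7 fibroblast genes, whose sum was 42.6 to 50.2 RPM in the 4 libraries, Col3a1 and Prrx1 were 2-fold higher and Thy1 was lower in both genotypes. Of 7 matched neural genes, summing to 92.5, 119, 170 and 165 RPM, Map2 and Dcx were 2-fold higher in both. Beside these lists, 13.3% of all kept genes were 2-fold lower in both genotypes and 3.8% were higher. The part of other cell types in the members' levels, Sox2 included, was not tested.

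**Figure D4:**
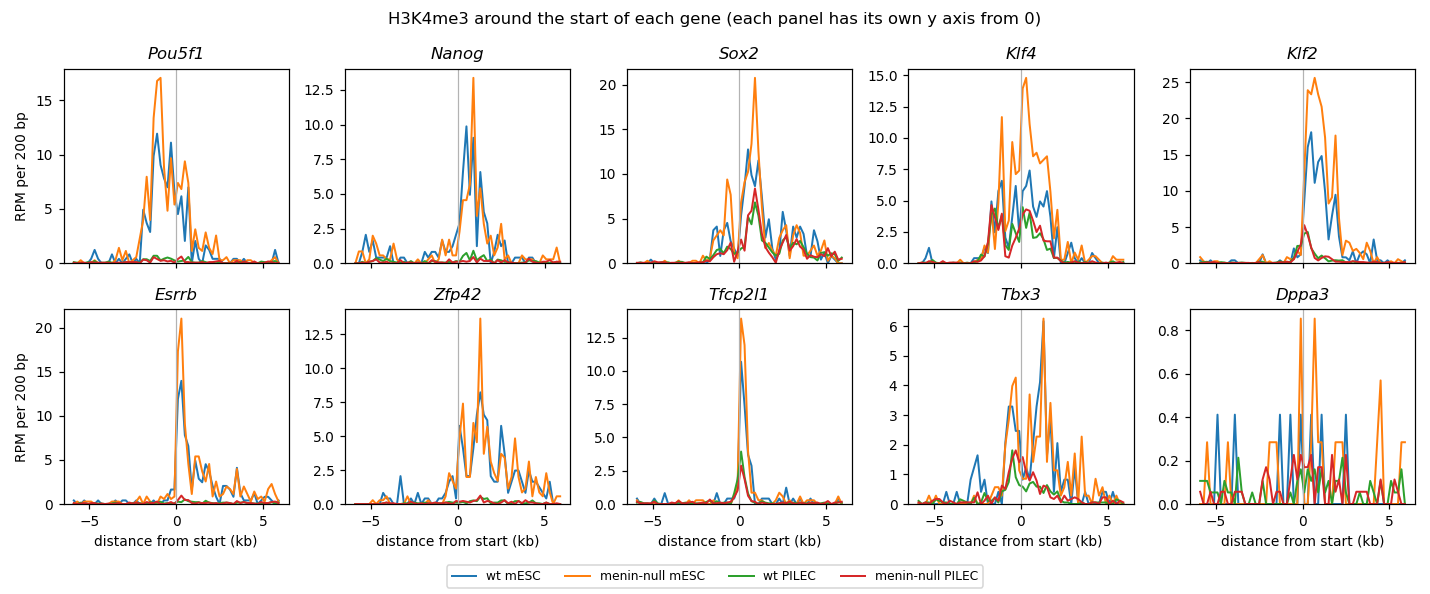
H3K4me3 in RPM per 200-bp window (vertical axis, each panel from 0) against the distance from the start along the gene (horizontal axis) for each member in the 4 H3K4me3 libraries. Klf2 shows the mESC signal downstream of the start and a narrow PILEC peak at it. Pou5f1, Nanog, Esrrb and Zfp42 show no clear PILEC peak on axes that reach their mESC signal. Some mark above input remained at Pou5f1 and Esrrb in both PILEC lines.

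The width of the mark was taken as the run of 200-bp windows with at least 2 RPM, joined over gaps of up to 400 bp, that overlapped 1 kb around the start. In the mESC libraries, which held fewer tags, few tags in a window reach this limit. Widths there carry counting error, for which no interval was computed. In mESCs the median width over the members was 2300 bp in wt and 2800 bp in menin-null cells, against 1000 and 800 bp over all kept genes. The members' median in menin-null mESCs was 1800 bp at 4 RPM per window and 1600 bp with no gap joined, and without the gap it was no longer above that of wt mESCs. In both PILEC lines it was 0 bp over the members and 1000 bp over all kept genes. In either PILEC library 6 of 10 members had no such run, where 22.1% of kept genes had none in wt and 23.0% in menin-null cells.

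Sox2 had the widest mark of the members in wt mESCs, 6400 bp, with 5200 bp in menin-null mESCs, and narrower runs of 1600 and 2000 bp in wt and menin-null PILECs. Klf4 measured 4800, 4000, 3200 and 3000 bp, the smallest relative decrease among the members with a run in PILECs. Klf2 measured 2400, 3200, 800 and 600 bp, and its run began 131 bp before the start in all 4 libraries, so that only its downstream edge differed. Zfp42 at 4800 and 5800 bp and Pou5f1 at 3200 and 4400 bp in wt and menin-null mESCs had 0 bp in both PILEC lines.

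Nanog measured 2000 and 1400 bp in wt and menin-null mESCs, Esrrb 2200 and 2400 bp and Tbx3 1200 and 1400 bp, and all 3 had 0 bp in PILECs. The Tbx3 run began 530 bp downstream of its start in both mESC lines, beside the Gm2301 start at 503 bp, and did not cover the Tbx3 start. Tfcp2l1 had the narrowest run, at 800, 600, 400 and 200 bp over the 4 conditions, and Dppa3 had none anywhere. A run of 0 bp means that no window reached 2 RPM, not that no mark was present: the highest window of Tbx3 in PILECs held 1.54 RPM in wt and 1.98 in menin-null cells, while that of Zfp42 held 0.320 and 0.339 RPM.

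In mESCs 0 of 10 members were 2-fold lower in menin-null than in wt cells (2.41% of kept genes were) and 1 of 10, Klf4, was 2-fold higher (1.55% were). Its log2 ratio was 1.01 (0.69 to 1.35), a fold of 2.01, and at the 5′ start of Klf4 it was 0.75 (0.43 to 1.10). Intervals above 0 were also found for Klf2 at 0.65 (0.40 to 0.92), Sox2 at 0.49 (0.20 to 0.79) and Pou5f1 at 0.34 (0.05 to 0.64), where 23.3% of kept genes had such an interval. No member had one below 0, where 2.1% of kept genes did. The other 6 members had intervals that included 0, among them Nanog at -0.16 (-0.56 to 0.23). The members' median was 0.32, beside 0.21 over all kept genes. Scaled by the tags within 1 kb of any start, which moves the median of all kept genes to -0.02, Klf4 was at 0.77, Klf2 at 0.41, Sox2 at 0.25 and Pou5f1 at 0.11, and 0 members passed 2-fold.

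Input levels around the genes also differed between the mESC lines. Within 500 kb of the start the log2 ratio of input, menin-null over wt mESCs, ran from -0.31 at Esrrb to 0.22 at Zfp42, and it was 0.16 at Klf2 and 0.08 at Klf4. Over the whole of chromosome 8, which carries Klf2 and Zfp42, it was 0.19 in mESCs and 0.03 in PILECs. Esrrb lies at the edge of a stretch of lower input in menin-null mESCs. The stretch of equal length just proximal to the gene had a log2 ratio of -0.93 (-1.18 to -0.68), the gene itself -0.05 (-0.23 to 0.12) and the stretch distal to it 0.06 (-0.14 to 0.27). In the PILEC inputs the proximal stretch was nearer to equal, at -0.20 (-0.30 to -0.09). There the gene was at 0.06 (-0.04 to 0.17) and the distal stretch at 0.02 (-0.09 to 0.13). The part of copy number in the members' levels was not tested.

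In PILECs 0 of 10 members were 2-fold lower in menin-null than in wt cells and 0 of 10 were 2-fold higher, where 0.777% and 0.225% of kept genes were. Nanog, at -0.76 (-1.66 to -0.25), and Tfcp2l1, at -0.36 (-0.71 to -0.06), had intervals below 0, as did 28.1% of kept genes. Tbx3, at 0.58 (0.30 to 0.93), had one above 0, as did 5.98%. The Nanog value rests on 27 and 55 tags at levels of 1.53 and 2.93 RPM, close to the input. The median of the members was 0.02, beside -0.09 over all kept genes.

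The ratio of genotypes was also compared between the stages, as the log2 menin-null over wt ratio in PILECs minus that in mESCs, with an exact conditional interval of the 4 tag counts. Klf4 differed by -0.997 (-1.38 to -0.62), Pou5f1 by -0.87 (-1.55 to -0.19), Klf2 by -0.72 (-1.07 to -0.38) and Tfcp2l1 by -0.69 (-1.26 to -0.13). These are 4 of 10 members with an interval below 0, where 30.1% of kept genes had one, a share too close to set the members apart, and 0 had one above 0, where 1.55% did. The 6 other members had intervals that included 0, such as Esrrb at 0.06 (-0.67 to 0.80) and Tbx3 at 0.52 (-0.10 to 1.13). The medians of all kept genes in the 2 stages, given above, lie apart in the same direction as the 4 named differences. Scaled by the tags near starts, Pou5f1 at -0.53 (-1.22 to 0.14) and Tfcp2l1 at -0.36 (-0.92 to 0.20) included 0, while Klf4 at -0.67 (-1.05 to -0.29), Klf2 at -0.39 (-0.74 to -0.04) and Tbx3 at 0.85 did not, where 8.08% of kept genes had an interval below 0 and 6.71% one above. Pou5f1 turned direction within 500 bp of the start, at 0.21 (-0.74 to 1.17), and at equal depth, where Klf2 and Tfcp2l1 also included 0 and of these 4 only Klf4 did not.

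Nanog, Pou5f1 and Zfp42, at most 3.25 RPM in either PILEC line, had a lower observed over expected CpG ratio within 500 bp of the start than Sox2, Klf2 and Klf4, which stayed marked, but Tfcp2l1 and Esrrb break this order. Tfcp2l1, at a CpG ratio of 0.59, held 9.97 and 6.02 times the input in wt and menin-null PILECs. Esrrb, at 0.62, was at 2.13 and 2.71 RPM there, 1.93 and 3.28 times the input. CG counts in the 300 bases around the same starts, given above, did not separate them in this way. The ratio was 0.32 at Nanog, 0.33 at Pou5f1, 0.48 at Dppa3, 0.49 at Zfp42, 0.59 at Tfcp2l1 and 0.62 at Esrrb. It was 0.71 at Klf2, 0.79 at Klf4, 0.89 at Sox2 and 0.91 at Tbx3. Across all kept genes, 29.5% of the 2039 with a ratio under 0.4 were 2-fold lower in PILECs in both genotypes, as were 23.9% of the 3122 from 0.4 to 0.6 and 7.62% of the 11699 at 0.6 or more. Esrrb and Klf2, both at 0.6 or more, were among the members lower in both genotypes, as was Sox2.

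**Figure D5:**
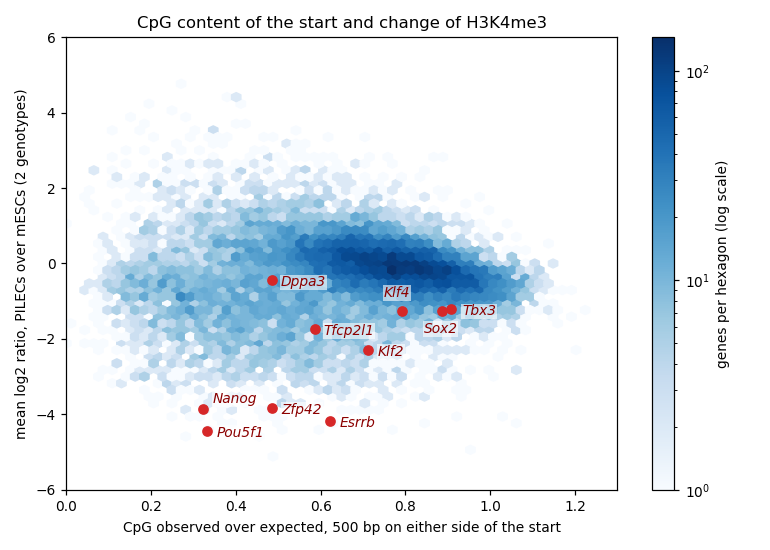
Mean log2 ratio of H3K4me3 in PILECs over mESCs of the 2 genotypes (vertical axis) against the observed over expected CpG ratio within 500 bp of the start (horizontal axis), for the 16860 kept genes as shaded hexagons and the 10 members as labelled points. Nanog and Pou5f1 lie at low CpG and low ratios, and Esrrb lies as low at a CpG ratio of 0.62.

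The 5 motifs fixed for this purpose were searched on both strands of the 300 bases around the start with the highest mean level of each gene. The octamer ATGCAAAT occurred in Zfp42 and in 1.28% of the promoters of all kept genes, and the Klf letters GGGTGTG occurred in Zfp42 and in 8.21%. The Sox letters ACAATG occurred in Nanog and in 5.95% of promoters. The TATA box letters TATAAA occurred in Tfcp2l1 and Tbx3 and in 5.68% of promoters. None of the 10 starts with the highest mean level held AAGGTCA, the letters of the estrogen-related receptors, which 2.63% of promoters held. Other annotated starts of the members also held matches, namely the Sox letters in Pou5f1, Nanog and Esrrb, the Klf letters in Esrrb and the TATA box letters in Tbx3 and Dppa3. These matches are descriptions of the letters in these windows.

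The genes nearest in pattern were those with the smallest Euclidean distance in log2(RPM + 0.5) over the 4 H3K4me3 libraries. Nearest to Pou5f1 were Fgf4 (distance 0.32), Tcfl5 (0.51) and L1td1 (0.78). Nearest to Nanog were Gcnt2 (0.27), Ampd3 (0.37) and Trim6 (0.45). Nearest to Sox2, at smaller distances, were Plekha7 (0.18), Mxi1 (0.19) and Smtnl2 (0.21). Gcnt2, the closest to Nanog, held 36.2, 38.7, 3.09 and 1.81 RPM over the 4 conditions.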

How the data were processed

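H3K4me3 ChIP and input DNA of the 4 conditions was sequenced as 36-bp reads by the authors, and reads that aligned to 1 place in mm9 were kept. They deposited the positions of these tags without normalization, 1 file per library, and 1.04% to 1.81% of the tags list more than 2 mismatches. The authors also deposited a score with each tag, whose meaning is not given in the sources used here and which was not used. Samples were grouped by their GEO labels.

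Tags were moved 125 bp towards the middle of the fragment, counted within 1 kb of each start of the mm9 annotation (GENCODE M1) and scaled by the total tags of the library (RPM). The start of a gene was the one with the highest mean RPM over the 4 H3K4me3 libraries, a choice that mESC levels led for most members. Tfcp2l1 and Map2 were matched through older symbols (Tcfcp2l1, Mtap2), and Sox1 was not matched. With 1 library per condition no test was made: log2 ratios carry exact conditional (Clopper-Pearson) 95% intervals, and 2-fold was the limit for a call. Calls and medians over all genes used those with a mean of at least 1 RPM. Named genes were all members, up to 6 genes per list that passed 2-fold in the same direction in both genotypes, the 3 nearest patterns of Pou5f1, Nanog and Sox2, and neighbouring starts within 1 kb, and single genes of a list were also named where a count turned on them or where a list's level was shown (Stat3, Lifr and the hormone genes). The members and lists were chosen with earlier results of these data known. Alternatives were tags at 1 per position, at their 5′ ends or with at most 2 mismatches, other windows, starts, scalings, added values, filters, fold limits and uses of the input, and equal depth. Scripts were tested on simulated data. Scripts ran in Python 3.11.15 with scipy 1.17.1, numpy 2.4.6, pandas 2.3.3 and, for figures, matplotlib 3.10.9. Expression arrays and other assays of the study were not analysed here.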

Additional observations from a re-analysis of the deposited data

Results flagged for a closer look

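The genotype ratio differed between the stages at 4 members by an exact conditional interval of the tag counts, unadjusted and for counting error only, with 1 library per condition. Such an interval below 0 was also found for 30.1% of all kept genes, so that the members are not set apart by it. The log2 menin-null over wt ratio in PILECs minus that in mESCs was -0.997 at Klf4, -0.87 at Pou5f1, -0.72 at Klf2 and -0.69 at Tfcp2l1. At Klf4 the menin-null level was 87.3 RPM against 43.2 in wt mESCs, and 25.5 against 25.2 RPM in PILECs. Over all kept genes the median ratio was 0.21 in mESCs and -0.09 in PILECs. When scaled by the tags within 1 kb of starts, the difference was -0.53 at Pou5f1 and -0.36 at Tfcp2l1, with intervals that included 0, and at equal depth only Klf4 of the 4 had an interval that excluded it. Pou5f1 was at 0.21 within 500 bp of the start and at 1.15 at equal depth.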

How the results depend on the processing

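No paired analysis was possible because each condition had 1 library and the labels carry no replicate numbers. Of the counts, medians and widths over the members, 190 values under an alternative stayed close to the reported one and 26 did not. Close meant within 1.5-fold for counts, and within 1.5-fold or 200 bp for widths. For median ratios it meant between the medians of the members' interval limits. Some of the 190 could not move: all members passed the filter, so dropping it changed none of their values, and a fold limit changes no median. Of the values of single members, 714 stayed close, 110 moved and 4 turned direction. In the stage by genotype difference 7 more gained and 4 more lost an interval that excluded 0. Pou5f1 within 500 bp and at equal depth also lost it, but was counted as turned in direction. The cause of these changes was not tested. The number of members 2-fold higher in menin-null mESCs, 1 as reported (Klf4), was 0 with 1 tag per position, with tags at their 5′ end, when scaled by tags within 1 kb of starts, within 2 kb, at the 5′ start, with 1 RPM added, when divided by input within 500 kb and at 3-fold, 2 with input subtracted (4.27% of kept genes) and 3 at 1.5-fold (11.4%). In PILECs it was 1 with input subtracted (0.664% of kept genes) and at equal depth (2.17%), and the number lower was 1 with input subtracted (2.2%) and at 1.5-fold (4.73%). Members lower in wt PILECs than wt mESCs numbered 5 at 3-fold, where 9.28% of kept genes were. The median of that contrast was -1.25 within 500 bp, -1.33 at the 5′ start and -1.10 when divided by input. In menin-null cells it was -2.01 when scaled by tags near starts, -1.91 within 500 bp, -1.80 at the 5′ start and -1.72 when divided by input, and 1 member was higher at the 5′ start, where 5.6% of kept genes were. That member was Esrrb, whose 5′ start gave 0.73 in wt and 1.24 in menin-null cells, the latter resting on 0 tags in menin-null mESCs. The median width in menin-null mESCs was 1800 bp at 4 RPM per window and 1600 bp with no gap. The stage by genotype difference of Pou5f1 was 0.21 within 500 bp and 1.15 at equal depth. At equal depth Klf2 at -0.71 (-1.46 to 0.03) and Tfcp2l1 at -0.48 (-1.57 to 0.60) included 0 as well, so that of the 4 members named for this difference only Klf4 still excluded it, and Sox2 at -0.69 (-1.28 to -0.09) did so too, 2 members in all, where 17.3% of kept genes had an interval below 0. Scaling by tags near starts moved the median of all genes from 0.21 to -0.02 for menin-null over wt mESCs and from -0.35 to -0.01 for the stage in menin-null cells. At 2432377 tags in the shallowest library, Dppa3 could not be told from input.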
